A study of Drosophila melanogaster with 2 samples.

Results

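Transfer RNA (tRNA) genes encode the adaptors that carry amino acids to the ribosome. The genes described here were all those that the Ensembl annotation of the Drosophila melanogaster genome (dm6) calls tRNA on its main arms (X, 2L, 2R, 3L, 3R) and chromosome 4, which were 290 of the 18164 annotated genes on these chromosomes, transposable elements left out. Chromosome 2R held 98 of them, 3R 79, 3L 48, 2L 41 and X 24, and chromosome 4 held none. A further 22 tRNA genes outside these chromosomes were not counted. The peaks were those of a chromatin immunoprecipitation and sequencing (ChIP-seq) study of Doc2, a T-box transcription factor of the Dorsocross group. Embryos of a transgenic line that expresses Doc2 fused to eGFP were collected whole from 0 to 18 h, their chromatin was sonicated to 200 to 800 bp, and the fusion protein was precipitated with an antibody to GFP. There was 1 group with 2 biological replicates, and a control library, named in the labels, was not analysed here. Whole embryos mix all cell types and span many stages, so a site bound in few cells and a site bound weakly in many cannot be told apart.

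RNA polymerase III transcribes tRNA genes from promoters that lie inside the gene. The factor TFIIIC binds short elements in the gene, the A box and the B box, and places TFIIIB upstream of the start, which recruits the polymerase, and a run of T in the sense strand ends transcription. In Drosophila the TBP-related factor Trf takes the place that TBP has in TFIIIB of other animals. Many tRNA genes have identical copies, in clusters or scattered over the genome, and some carry a short intron that is spliced out of the transcript. In yeast, tRNA genes are known as places where ChIP-seq signal of unrelated proteins can collect.

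The 290 genes were short, with a lowest length of 71 bp, a median of 73 bp and a highest of 186 bp, and they covered 44 anticodons and 22 isotypes, with initiator methionine and selenocysteine counted apart. Their spliced sequences were of 84 kinds, and 252 genes shared theirs with at least 1 other gene, with up to 13 copies. A B box written as GTTCAANNC or GTTCGANNC was present on the sense strand of 271 genes (93.4%), against 0.576% of all stretches of 73 bp. A run of TTTT lay within 50 bp downstream of 289 (99.7%), against 32.1% of all stretches of 50 bp. Joined where the gap was at most 5000 bp, the genes formed 144 loci, of which 68 were clusters holding 214 genes and 76 were single genes.

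Few tRNA genes carried a thresholded Doc2-eGFP peak. A summit of the series list, the authors' thresholded list for the whole data set, lay within 500 bp of 2 of the 290 genes (0.69%, 95% exact Clopper-Pearson interval 0.0836 to 2.47%, counting error only). Those genes were tRNA:Phe-GAA-1-2, for phenylalanine, and tRNA:Tyr-GTA-1-8, for tyrosine, and each had 1 peak. Averaged over all placements of each gene on its own chromosome, with the peaks kept in place, 2.56 genes would have a summit. Among all other genes, 4.2% had a series summit within 500 bp of a transcript start, and among the 13945 protein-coding genes 5.02% did. Both shares were above the upper bound for tRNA genes. That bound treats the genes as independent, while clustered genes share bases and peaks, so it is not a test against other genes. The windows are unlike, since a gene with several transcript starts counted with a summit at any of them, in this and every other list. The 2 peaks were 0.175% of the 1140 series peaks, and bases within 500 bp of a tRNA gene were 0.174% of the chromosomes, a ratio of 1.01.

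Both peaks are shown here because they are the only series peaks with a summit within 500 bp of a tRNA gene. The windows reach 100 bp to either side of the summit on the forward strand of dm6, and the capitals mark the 6-mer ACAGTG, searched on both strands. The first window lies at X:6744211-6744411, and the second at 3R:8669280-8669480.
Summit near tRNA:Phe-GAA-1-2: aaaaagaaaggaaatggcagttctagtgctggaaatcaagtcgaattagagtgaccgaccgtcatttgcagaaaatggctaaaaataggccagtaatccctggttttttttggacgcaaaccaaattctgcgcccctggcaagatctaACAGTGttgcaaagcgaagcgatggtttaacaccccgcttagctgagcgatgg
Summit near tRNA:Tyr-GTA-1-8: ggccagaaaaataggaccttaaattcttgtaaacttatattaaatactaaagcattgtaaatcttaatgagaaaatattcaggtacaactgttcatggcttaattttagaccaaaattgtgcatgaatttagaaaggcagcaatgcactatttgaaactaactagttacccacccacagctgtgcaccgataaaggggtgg
The first window holds ACAGTG and has a GC content of 45.3%, and the second holds no ACAGTG and has a GC content of 34.8%. The T-box core GGTGTGA is in neither window. Among the other 1138 series peaks, 22.6% held ACAGTG and 1.58% held GGTGTGA within the same distance of the summit.

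The tRNA:Tyr-GTA-1-8 gene is the outermost of 3 tyrosine genes in a row, which makes it possible to set near-identical genes side by side at increasing distance from a single peak. Each is printed 5′ to 3′ on its own strand, which is the reverse strand of 3R, with the B box in capitals. They lie at 3R:8668116-8668208, 3R:8668612-8668705 and 3R:8669081-8669174.
tRNA:Tyr-GTA-1-6: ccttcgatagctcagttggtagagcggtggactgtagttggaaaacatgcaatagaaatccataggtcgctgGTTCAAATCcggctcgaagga
tRNA:Tyr-GTA-1-7: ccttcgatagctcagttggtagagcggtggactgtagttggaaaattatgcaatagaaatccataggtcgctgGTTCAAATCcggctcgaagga
tRNA:Tyr-GTA-1-8: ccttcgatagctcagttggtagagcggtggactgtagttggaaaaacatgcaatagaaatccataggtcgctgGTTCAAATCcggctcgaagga
All 3 have the same 73 exon bases and differ in the intron, by 2 bases between tRNA:Tyr-GTA-1-7 and tRNA:Tyr-GTA-1-8. The series summit lay 206 bp upstream of tRNA:Tyr-GTA-1-8, 675 bp from tRNA:Tyr-GTA-1-7 and 1172 bp from tRNA:Tyr-GTA-1-6.

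**Figure D1:**
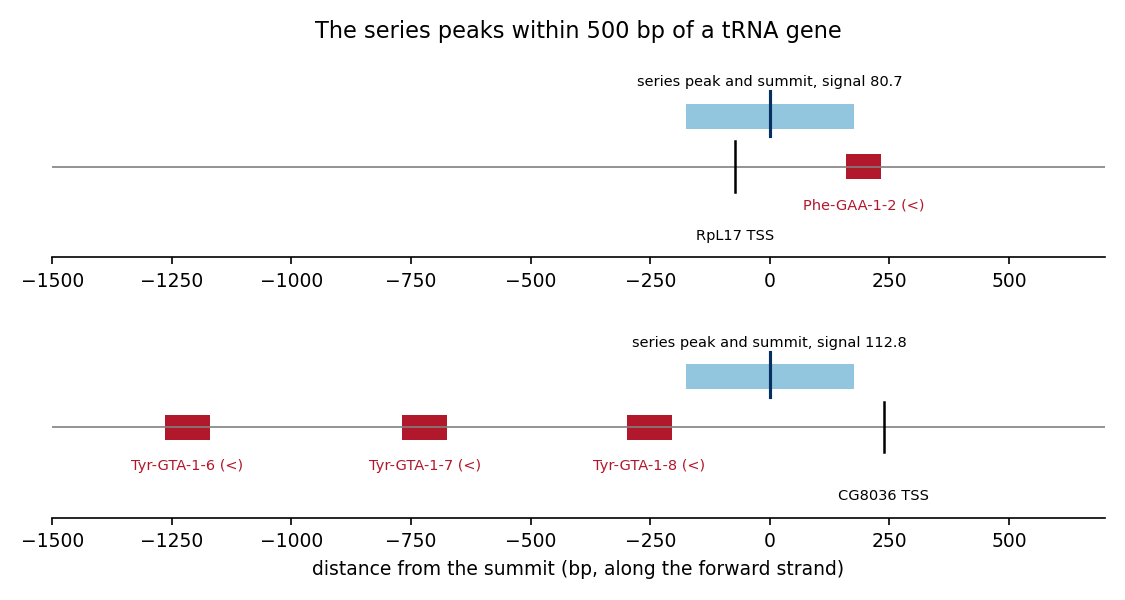
Maps of the series peaks (blue bars, summit as a dark line) within 500 bp of a tRNA gene (red, with < for the reverse strand) and of the nearest protein-coding transcription start site (TSS, black line), along distance from the summit in bp. In both loci the summit lies between the tRNA gene and the TSS, outside the tRNA gene.

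The peak at tRNA:Tyr-GTA-1-8 (FBgn0012024) spanned 8669205 to 8669554 of 3R, with its summit at 8669380. It lay in introns of CG8036 and of pink (p), a gene known for eye pigment, and 238 bp upstream of a TSS of CG8036 at 8669618. Its signal, the value the authors' peak caller gave the peak, was 112.8 in the series list, where it ranked 505 of 1140, and 112.8 in the conservative list. In the own list of replicate 1 the signal was 67.2, and the own thresholded list of replicate 2 held no peak there. The longer ranked list of replicate 2 held one with a signal of 53.4 and a score of 763, which is under the lowest score of the series list, 831. The peak was thus above the threshold in 1 of the 2 replicates, with a peak at the same place below it in the other.

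The peak at tRNA:Phe-GAA-1-2 (FBgn0052740; X, 6744471 to 6744543, reverse strand), a single gene between protein-coding genes, spanned 6744136 to 6744485. Its summit at 6744311 lay 160 bp downstream of the tRNA gene and 73 bp upstream of the TSS of RpL17, which encodes a protein of the large ribosomal subunit. Its signal was 80.7 in the series list, rank 874, and it was not in the conservative list. Replicate 1 gave a signal of 59.5 in its thresholded list, and replicate 2 gave 27.5 with a score of 153 in its ranked list, rank 8966, and nothing in its thresholded list. Neither of the 2 peaks was therefore in the thresholded lists of both replicates. The list of replicate 2 was shorter, with 468 peaks against 1140 in the series list. The share of the other series peaks found in both replicate lists is not given here, so this absence cannot be called unusual.

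Both genes belong to the 33 tRNA genes within 500 bp of a protein-coding TSS. None of the other 257 tRNA genes had a series summit within 500 bp. From the peak lists it cannot be told whether these 2 peaks belong to the tRNA gene or to the neighbouring TSS. The median signal of the 2 peaks was 96.7, against 104.6 for the other series peaks, at the 44.5th percentile of the list.

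Both genes have copies with the same spliced sequence elsewhere in the genome. The spliced sequence of tRNA:Tyr-GTA-1-8 is shared by 9 genes, and of these only tRNA:Tyr-GTA-1-8 itself had a series summit. The spliced sequence of tRNA:Phe-GAA-1-2 is shared by 8 genes, and again only that gene had one. In the ranked list that contains the series list, 4 of the 9 tyrosine genes had a summit, with signals of 27.9 at tRNA:Tyr-GTA-1-9, 29.4 at tRNA:Tyr-GTA-1-4, 30.1 at tRNA:Tyr-GTA-1-3 and 112.8 at tRNA:Tyr-GTA-1-8. Of the 8 phenylalanine genes 3 had one, with signals of 26.6 at tRNA:Phe-GAA-1-3, 32.7 at tRNA:Phe-GAA-1-1 and 80.7 at tRNA:Phe-GAA-1-2. In each family the gene with a series peak had the highest of these signals. It was picked for that same peak, so its place among the copies is not a separate result. Some copies without a series peak also lie within 500 bp of a protein-coding TSS. Of these, tRNA:Tyr-GTA-1-9, which overlaps an exon of Ntl, had 27.9, and tRNA:Tyr-GTA-1-6 and tRNA:Phe-GAA-1-8 had no series ranked summit. These copies were picked after their values were seen. Over all tRNA genes, 2 of the 33 near a TSS (6.06%) and 0 of the other 257 had a series summit. The part of TSS distance in the signal was not tested.

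The other thresholded lists gave the same low counts. In the conservative list 1 tRNA gene had a summit (0.345%, exact interval 0.00873 to 1.91%), against 4.02% of all other genes and 2.36 genes averaged over all placements. The list of replicate 1, with 777 peaks, had summits at 2 tRNA genes (0.69%), against 3.52% and 1.75 genes. The list of replicate 2, with 468 peaks, had none, which allows up to 1.26%, against 2.19% and 1.04 genes. In all 4 lists the share of tRNA genes was below that of other genes and within 2 genes of the average over placements, and these counts are too small to place it above or below that average. A low share was not particular to tRNA genes. In the series list 0.743% of small nucleolar RNA genes, 0.373% of pseudogenes and 1.44% of genes annotated as ncRNA had a summit near a transcript start.

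The series summits nearest to further tRNA genes lay outside the window. Just beyond 500 bp were tRNA:Tyr-GTA-1-7 at 675 bp, tRNA:Glu-CTC-3-1 at 763 bp and tRNA:Glu-CTC-3-2 at 1067 bp, the latter pair beside a peak with a signal of 70.3 in introns of Ptp61F and ru. Within 1000 bp of a series summit there were 4 tRNA genes, against 4.85 averaged over all placements. Within 5000 bp there were 24 against 21.9, and within 10000 bp 46 against 41. The median distance from a tRNA gene to the nearest series summit was 32195 bp.

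**Figure D2:**
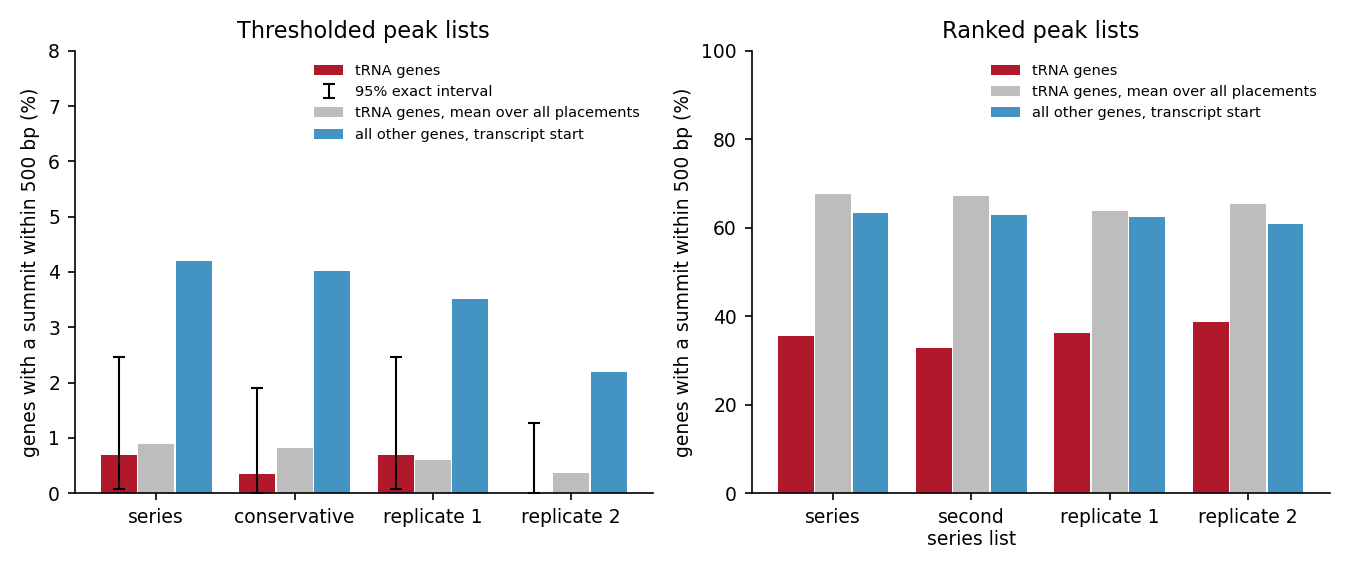
Percent of genes with a summit within 500 bp in each peak list. Red bars are tRNA genes, with the 95% exact interval for the thresholded lists. Grey bars are the average over all placements of the tRNA genes, with the peaks kept in place. Blue bars are all other genes, measured at their transcript starts. The share of tRNA genes is 0 to 0.69% in the thresholded lists and 32.8 to 38.6% in the ranked lists, below the other genes in each.

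The ranked lists hold the peaks before the threshold and are far longer, with 140206 peaks in that of the series, so they show how the weak signal lies around tRNA genes. The results on these lists and their alternatives were added after the series list had given only 2 genes. In the series ranked list, which contains the series list, 103 of the 290 tRNA genes (35.5%) had a summit within 500 bp, against 63.4% of all other genes at their starts and 196.3 genes averaged over all placements. The 128 ranked peaks at tRNA genes were 0.524 of the number that the share of bases gives, 244.4. Their density was 0.549 summits per kb within 500 bp of a tRNA gene, against 1.05 over the 6 chromosomes.

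Counts at tRNA genes were low in every ranked list. In replicate 1, 105 tRNA genes had a ranked summit (36.2%), against 62.4% of all other genes and 185.1 over placements. Replicate 2 gave 112 (38.6%), against 60.9% and 189.3. The second series ranked list, which contains the conservative list, gave 95 (32.8%), against 62.8% and 194.7. The ratio of peaks to the share of bases was 0.584 in replicate 1, 0.638 in replicate 2 and 0.487 in the second series ranked list.

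The ranked peaks that tRNA genes did have were ordinary in height. Their median signal in the series ranked list was 24.3, against 23.3 for the other peaks, and the medians were 12.2 against 14.5 in replicate 1 and 13.1 against 14 in replicate 2. Among the 126 ranked peaks at tRNA genes outside the series list, the signal had a lowest value of 2.8, a median of 24 and a highest of 64.3, and the highest score was 405. No ranked peak at a tRNA gene was thus close to the score of 831 at which the series list begins, apart from the 2 in that list. The strongest of them lay 423 bp from tRNA:Met-CAT-1-5 on 3R (signal 64.3), 130 bp from tRNA:Met-CAT-1-3 on 3L (51.8) and 312 bp from tRNA:Val-CAC-2-2 on 3R (50.3), all between protein-coding genes. The nearest protein-coding TSS was 6656, 4728 and 12300 bp from these genes. These 3 were picked for their height after it was seen.

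The share of series peaks at tRNA genes, 0.175%, was 1.94 times the share among ranked peaks outside the series list, 0.0906% (126 of 139066). That ratio rests on 2 peaks, and in the list of replicate 2 the share was 0. ACAGTG was within 100 bp of the summit in 4.76% of those 126 ranked peaks, against 8.07% of the other ranked peaks.

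Around the tRNA genes the density of ranked summits was lowest near the gene. From 500 bp upstream to the 5′ end it was 0.352 summits per kb, and in the next 500 bp, which hold the gene, it was 0.517. From 1000 to 500 bp upstream it was 0.8, and from 1000 to 1500 bp downstream 0.903. Single tRNA genes showed the dip at a higher level, with 0.632 in the 500 bp upstream and 1.18 in the 500 bp before that. Protein-coding genes also dipped upstream of the start, to 0.792 from 0.949. Over all tRNA genes the dip lay on both sides of the 5′ end. In the first 500 bp downstream, single tRNA genes were at 0.974 and protein-coding genes at 0.978. In the series ranked list the dip downstream was thus not clear at single tRNA genes, whose next 500 bp were at 1. In replicate 1 the first 500 bp downstream of single genes were at 0.789, against 0.974 in the next 500 bp. In replicate 2 these bins were at 0.868 and 1.03. Clustered genes share bases and summits in these bins.

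**Figure D3:**
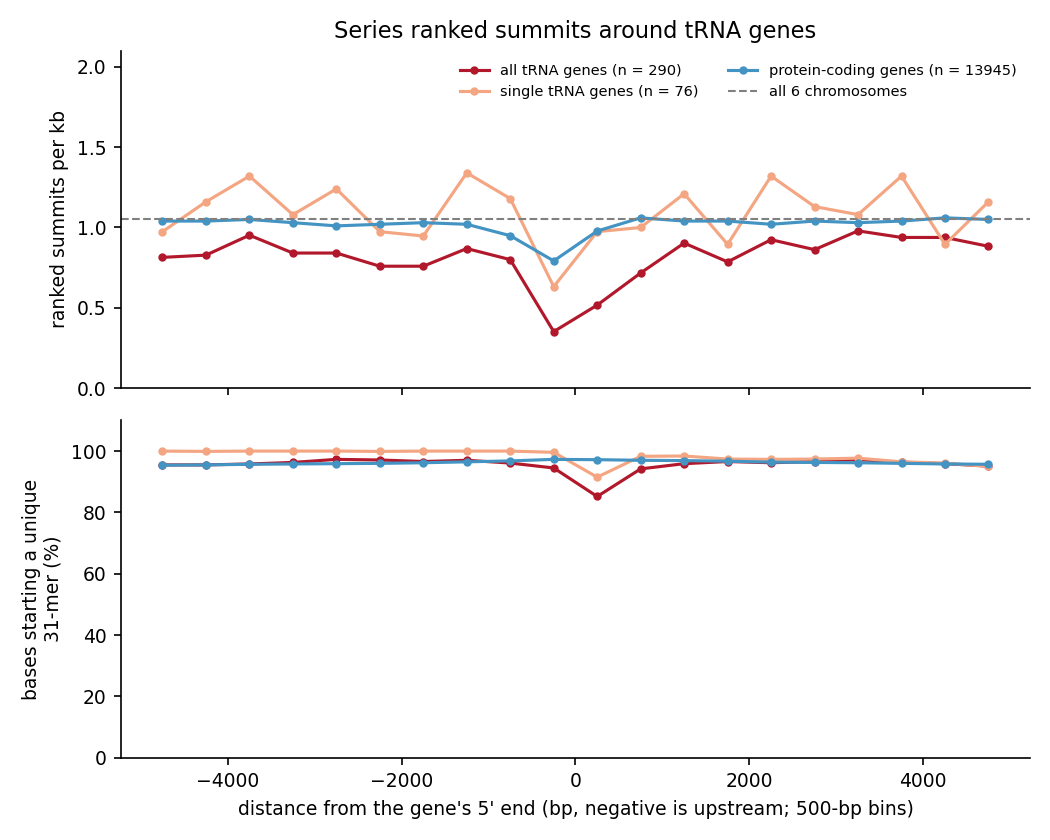
Series ranked summits per kb (top) and percent of bases that start a 31-mer found once in the assembly (bottom) in 500-bp bins from the 5′ end of all tRNA genes, single tRNA genes and protein-coding genes, with the density over all 6 chromosomes as a dashed line. The density at tRNA genes falls to 0.352 in the bin upstream of the gene, where 94.5% of bases are unique, and the unique share falls to 85.2% in the bin that holds the gene.

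Sequence that occurs in several copies can lose reads in mapping, so the share of bases that start a 31-mer found once in the assembly was measured beside the density. It was 43.2% within the tRNA genes themselves, 91.9% within 500 bp of them and 87.2% over the 6 chromosomes. With only bases of unique 31-mers counted, the ratio of ranked peaks to the share of bases was 0.509, against 0.524 with all bases. The GC content within 500 bp of tRNA genes was 39%, against 42.2% over the chromosomes, and its part in the result was not tested. Inside the tRNA genes lay 6 of the 128 series ranked summits, where their length gives 12.1, with 48 upstream and 74 downstream. Replicate 1 had 7 inside, against 11.6, and replicate 2 had 11, against 13, so the count in replicate 2 was close to what the length gives.

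Single tRNA genes had denser ranked summits than clusters. In the series list, 1 of 68 clusters (1.47%) and 1 of 76 single genes (1.32%) had a summit. In the series ranked list, 45 of the 76 single genes (59.2%) had a summit, against 58 of the 214 clustered genes (27.1%). Clustered genes share bases, so the density is the better measure, and it was 0.843 summits per kb at single genes and 0.389 at clusters. In replicate 1 the densities were 0.758 and 0.403, and in replicate 2 they were 0.758 and 0.502, so the direction was the same in both. Per locus the difference was small, with 54.4% of clusters and 59.2% of single genes, and a cluster spans more bases. It did not keep its direction, with 54.4% of clusters and 55.3% of single genes in replicate 1 and 58.8% and 57.9% in replicate 2. The unique share of bases was 95.7% at single genes and 89.8% at clusters, and its part in these differences was not tested.

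By size of the locus, the density in the series ranked list was 0.843 for single genes, 0.433 for pairs, 0.471 for loci of 3 to 4 genes and 0.236 for loci of 5 or more. Pairs and loci of 3 to 4 did not keep their order between replicates, with 0.433 and 0.578 in replicate 1 and 0.642 and 0.492 in replicate 2. Loci of 5 or more were lowest in both replicates, at 0.165 and 0.306. Among the largest, the cluster of 11 genes on 2R for arginine, asparagine, isoleucine and lysine had no gene with a ranked summit in any of the 4 lists. The cluster of 11 genes on 3R for alanine, proline, threonine and valine had 1 in the series ranked list, none in replicate 1 and 3 in replicate 2. The cluster of 7 genes on X for arginine and serine went the other way, with 4 in every ranked list.

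**Figure D4:**
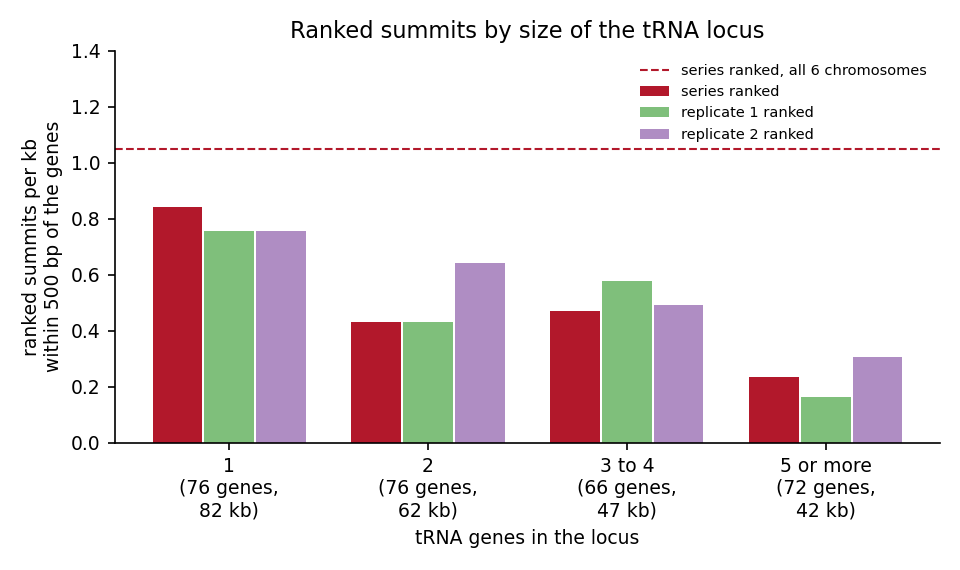
Ranked summits per kb within 500 bp of tRNA genes by the number of genes in the locus, for the series ranked list (red) and the ranked lists of replicate 1 (green) and replicate 2 (purple), with the series ranked density over the 6 chromosomes as a dashed line. Loci of 5 or more genes are lowest in all 3 lists, at 0.236, 0.165 and 0.306.

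Cluster, locus size and 7 other ways to split the genes were examined. By chromosome, the series ranked density at tRNA genes was 0.974 summits per kb on X, 0.725 on 2L, 0.61 on 3L, 0.524 on 3R and 0.345 on 2R, while the density over whole chromosomes lay between 0.996 and 1.14 on these 5. Genes on X were highest and genes on 2R lowest in both replicates too, at 0.82 and 0.411 in replicate 1 and 0.974 and 0.438 in replicate 2. By isotype, 5 of 6 elongator methionine genes, 5 of 7 cysteine genes, 3 of 19 lysine genes and 1 of 11 isoleucine genes had a series ranked summit. Cysteine did not hold between replicates, with 7 of 7 in replicate 1 and 2 of 7 in replicate 2. Isoleucine stayed low, with 2 and 0 of 11, and methionine stayed high, with 5 and 4 of 6. The 6 methionine genes lay in 6 loci, and the 11 isoleucine genes also lay in only 6. A cluster of 7 isoleucine and leucine genes on 2R had no summit in any ranked list. Isotype and clustering thus overlap, and their parts were not tested. The isotypes named were picked from 22 after their values were seen. Lysine moved, with 6 of 19 in replicate 1 (31.6%, near the 36.2% of all tRNA genes there) and 2 of 19 in replicate 2. At lysine genes 79.2% of bases were unique, the lowest of the isotypes, and the part of this in the result was not tested.

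Position relative to protein-coding genes made less difference. Of the 127 tRNA genes in introns of protein-coding genes, 40.9% had a series ranked summit, against 30.8% of the 156 between genes and 3 of the 7 that overlap an exon. Of the 33 genes near a protein-coding TSS 33.3% had one, against 35.8% of the 257 farther away. Genes whose full sequence, with any intron, is found once among tRNA genes had a density of 0.784. It was 0.459 for those with 2 to 4 identical copies and 0.472 for those with 5 or more. By unique share of the window the density was 0.579 at 90% or more, 0.297 at 70 to 90% and 0.362 under 70%. The lowest bin did not keep its place between replicates, with 0.271 in replicate 1 and 0.633 in replicate 2, where genes at 90% or more had 0.63. The 16 genes longer than 90 bp had a density of 0.678, against 0.536 for the rest. That direction turned in replicate 2, with 0.474 against 0.595, while replicate 1 gave 0.61 against 0.518.

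The tRNA genes with a ranked summit were partly the same in the 2 replicates. A ranked summit was present in both replicates at 65 genes, in replicate 1 only at 40, in replicate 2 only at 47 and in neither at 138. At 134 genes none of the 4 ranked lists had a summit. Of all other genes, 62.4% had a ranked summit in replicate 1 and 60.9% in replicate 2. Their overlap between replicates was not counted, so that of tRNA genes cannot be called high or low. Over the 65 genes, which share peaks within clusters and are not independent, Spearman's rho of the strongest signal in each replicate was 0.166, and 0.0913 without the 2 genes of the series list. The median signal was 15 in replicate 1 and 17.6 in replicate 2, each on the scale of its own list.

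**Figure D5:**
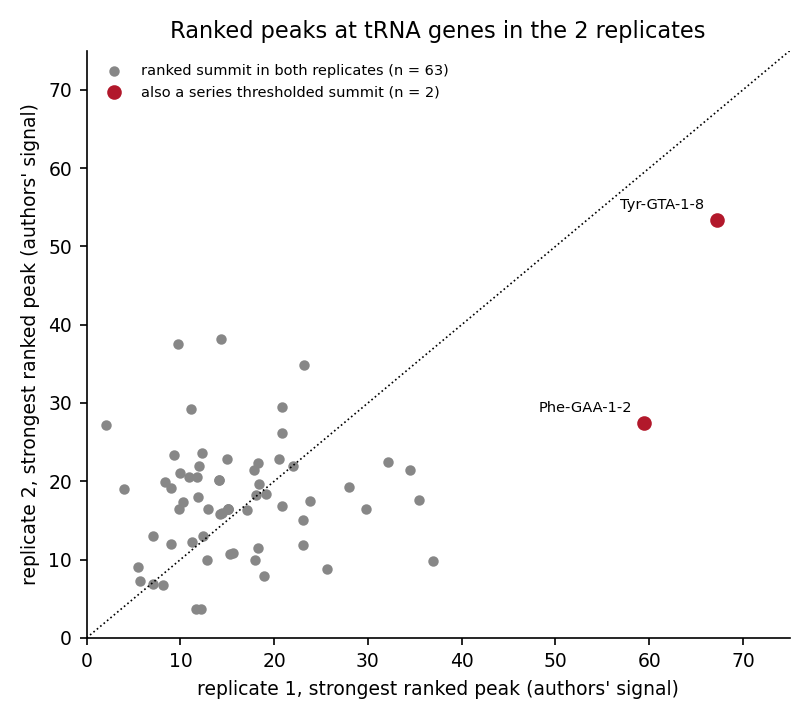
The strongest ranked peak within 500 bp of each of 65 tRNA genes that have a ranked summit in both replicates, as the authors' signal in replicate 1 (x) and replicate 2 (y), with equal values on the dotted line. The 2 genes with a series peak (red) are at 59.5 and 67.2 in replicate 1 and at 27.5 and 53.4 in replicate 2. They were picked for that peak, so their height is not a separate result. The other 63 form a cloud with little order.

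Among 9 other genes of RNA polymerase III none had a series summit, a count too small to set against the 4.2% of all other genes. These were snRNA:7SKa, whose RNA restrains elongation by RNA polymerase II, the pair of 7SL genes 7SLRNA:CR32864 and 7SLRNA:CR42652 for the RNA of the signal recognition particle, RNaseP:RNA and RNaseMRP:RNA for the RNA parts of those enzymes, and the spliceosomal genes snRNA:U6:96Aa, snRNA:U6:96Ab, snRNA:U6:96Ac and snRNA:U6atac. A ranked summit lay within 500 bp of 1 of them, 5 bp from snRNA:7SKa with a signal of 50.8, against 6.69 genes over all placements. The gene snRNA:7SKa had been missed at first under its older name and was matched by its synonym. A series summit lay 616 bp from it, the nearest to any of the 9. The snRNA:U6:96 genes are neighbours, as are the 7SL genes, so the 9 are not independent sites. The unique share within 500 bp of the 9 was 77.5%, but it was 22.5% at 7SLRNA:CR42652 and 24.4% at 7SLRNA:CR32864. Of the 100 genes for 5S ribosomal RNA, 4 had a ranked summit, but only 4.85% of bases there were unique. Small nucleolar RNA genes, also short but with a unique share of 98.1%, had a ranked summit at 104 of 269 (38.7%) and a density of 0.74, between single and clustered tRNA genes.

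Some genes for proteins that act on tRNA had series peaks at their starts. Their signals lay between 77.3 and 686.3, and the median of the series peaks was 104.6. Of 19 genes for RNA polymerase III and its factors, 2 (10.5%) had a series summit within 500 bp of a transcript start, Bdp1 with a signal of 239.7 and Brf with 146.5, against 5.02% of all protein-coding genes. Both encode subunits of TFIIIB. Trf, which takes the place of TBP in it, had no summit in the series list or the series ranked list. The signals were 131.8 in replicate 1 and 110.4 in replicate 2 at Bdp1, and 66.2 and 73.6 at Brf, so both genes were in the thresholded lists of both replicates. Of 20 aminoacyl-tRNA synthetase genes, whose enzymes load tRNA with amino acids, 4 (20%) had a series summit: GluProRS (203.6), SerRS (183.7), IleRS (106.1) and ThrRS (77.3). GluProRS and SerRS were in both replicate lists, IleRS only in that of replicate 1 (66.7) and ThrRS in neither. Of 19 genes for tRNA processing and modification, 1 (5.26%) had one, Tcs5, a gene of the threonylcarbamoyl modification of tRNA, with 686.3. These are counts of 1 to 4 genes, and no list was tested.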

How the data were processed

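ChIP-seq peaks of Doc2-eGFP in 0 to 18 h embryos, 1 group of 2 biological replicates, were taken as the authors deposited them on dm6. The deposited lists give each peak a signal (column 7), a scaled score (column 5) and the summit's offset from the start (column 10), and the ranked lists also the deposited −log10 of the irreproducible discovery rate (column 12), which was not needed. Per the file headers and notes, thresholded and ranked lists exist per replicate and for the series. The ranked list that contains the series list and the one that contains the conservative list were told apart by that containment. Aligner and caller: not given in the sources used here. Both read depth and the scale of the signal are unknown. Signals were used only within a list.

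Positions are 1-based. A summit (start plus offset) counted as at a tRNA gene within 500 bp of its body, and at any other gene within 500 bp of a transcript start. Gene models were those of Ensembl release 115, and sequence was from RefSeq's dm6 assembly. The expected counts are exact averages over all placements of a gene of the same length on its own chromosome, with the observed summits kept in place. There was no random draw and no test, since 1 group allows no comparison over samples. Intervals are exact 95% binomial and cover counting error only; neighbouring genes share bases, so genes are not independent. The placement code was tested on simulated data.

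The members, lists and splits were chosen with earlier results of these data known. Bins of locus size, unique share and copies were set after the first counts. A gene of another enzyme was taken off the RNA polymerase III list as wrongly placed, and 2 genes of tRNA processing were not matched. The genes named were tRNA genes with a series summit and a summit in at least 1 replicate list, the 3 just inside or outside 500 bp (only 2 were inside), the other RNA polymerase III transcripts, and up to 4 members of each other list by signal. Genes named beyond this rule were chosen after their values were seen. Alternatives were other lists, each replicate alone, the upper 50% by signal, windows, distances, gaps, backgrounds and members. Analyses used Python 3.11.15, scipy 1.17.1, pandas 2.3.3, numpy 2.4.6 and matplotlib 3.10.9.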

Additional observations from a re-analysis of the deposited data

How the results depend on the processing

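With 2 genes in the series list, every result on them moves in whole peaks. The number of tRNA genes with a series summit (2) was 1 in the conservative list, 1 in the upper 50% by signal, 4 within 1000 bp, 0 without genes near a protein-coding TSS and 0 to 2 with either replicate alone, and it was 2 in the other alternatives. The number of peaks (2) was 1, 1 and 0 to 2 in the first pair and the single replicates. The fold over the genome share (1.01) ranged from 0 to 1.65. The fold over ranked peaks (1.94) was 4.14 within 250 bp, 1.25 within 1000 bp, 1.11 in the conservative list and 0 to 2.55 with single replicates. The percentile of the median signal (44.5) was 11.4 in the upper 50% by signal and 23.3 within 1000 bp. The difference between clusters and single loci (0.155 percentage points) was 1.47 in the conservative list, 1.47 in the upper 50% by signal, 1.63 within 1000 bp, 0.497 with a gap of 1000 bp, −0.113 with 10000 bp and 0 to 0.155 with single replicates. The number of upstream summits (1) was 0 to 1. The ACAGTG share (50%) was 0 in the conservative list, 0 in the upper 50% by signal and 0 within 50 bp of the summit. The number of genes that also lay near a TSS (2) was 1 within 250 bp and 1 in the conservative list. In the alternatives added after the data were seen, the number of tRNA genes with a ranked summit (103) was 52 within 250 bp and 176 within 1000 bp. The ranked fold (0.524) was 0.409 within 250 bp, 0.71 within 1000 bp, 0.805 for single loci, 0.44 outside protein-coding genes and 0.584 to 0.638 with single replicates, and it was below 1 in all 11. Without replicate 1 there was no peak to give a percentile or an ACAGTG share. No paired analysis was possible because there was 1 group. The cause of these moves was not tested. Depth is unknown, so peaks missing from replicate 2 cannot be told apart from peaks below its detection.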
